A study of Mus musculus with 18 samples.

Results

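Interleukin-1 (IL-1) and IL-18 are cytokines that myeloid cells make as precursors, and an inflammasome is the protein platform on which the precursors of IL-1β and IL-18 are cut to their active form. Signaling through NF-kB first raises the transcripts of the cytokine and of the sensor NLRP3, and the assembled sensor then recruits the adaptor ASC and the protease caspase-1, which cuts the cytokines and gasdermin D, the protein that opens pores in the cell membrane. The pathway is braked outside the cell by a soluble receptor antagonist, by a decoy receptor and by an IL-18 binding protein. The transcripts of 9 genes of this pathway, *Il1a*, *Il1b*, *Il1rn*, *Il1r2*, *Il18*, *Nlrp3*, *Casp1*, *Gsdmd* and *Pycard*, were described here in macrophages sorted from liver metastases. They were chosen by symbol, and each was found once among the 13759 genes of the macrophage count table.

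The macrophages came from livers of female C57BL/6J mice, 8 to 10 weeks old, 20 days after MC38 cells, a mouse colon adenocarcinoma line, were injected into the spleen. Both macrophage subsets came from metastases, and no macrophages of an uninjected liver were compared. Metastasis-associated macrophages (MAMs) were taken as lineage-negative CD45+ CD11b+ cells and split by their surface F4/80 into F4/80high and F4/80low cells, with 3 libraries of each. A second set of 12 libraries held lineage-negative CD45+ NKp46+ lymphocytes of the same model, sorted from pools of 6 to 8 samples, with 3 libraries each of metastasis-free liver (MFL) NK cells, MFL ILC1, and CD49a- and CD49a+ NK cells of the liver metastasis (LM). The paper describes 3 independent sortings of these lymphocytes, and the main fit did not pair libraries by replicate number. The labels do not say whether the 3 macrophage libraries of a subset came from separate mice, and the number of mice per library is not given in the sources used here, so the p-values measure the spread between these libraries, which may be technical.

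The macrophage libraries held between 21278959 and 32267015 counts and the lymphocyte libraries between 8795721 and 14386834. *Adgre1*, which encodes the F4/80 protein used for the sort, read between 805.6 and 1167 counts per 1000000 counts (CPM) in F4/80high MAMs and between 124.5 and 160.4 CPM in F4/80low MAMs, so the libraries followed their labels. CPM here are scaled by the trimmed mean of M values (TMM), which leaves the median log2 fold change of all 13759 genes at 0.01. The subsets differed widely. At an adjusted p under 0.1 in edgeR's quasi-likelihood test, 54.9% of all genes were called, 27.1% lower and 27.8% higher in F4/80high than in F4/80low MAMs, and 58.4% of all genes had values that did not overlap between the subsets. Against this background 7 of the 9 genes were called, all 7 lower in F4/80high MAMs and all 7 without overlap, and none was called higher. The 9 genes were chosen with earlier results of these data known, so these counts describe them and are not a test. Bulk libraries cannot tell fewer cells that express a gene from less RNA of that gene in each cell.

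**Figure D1:**
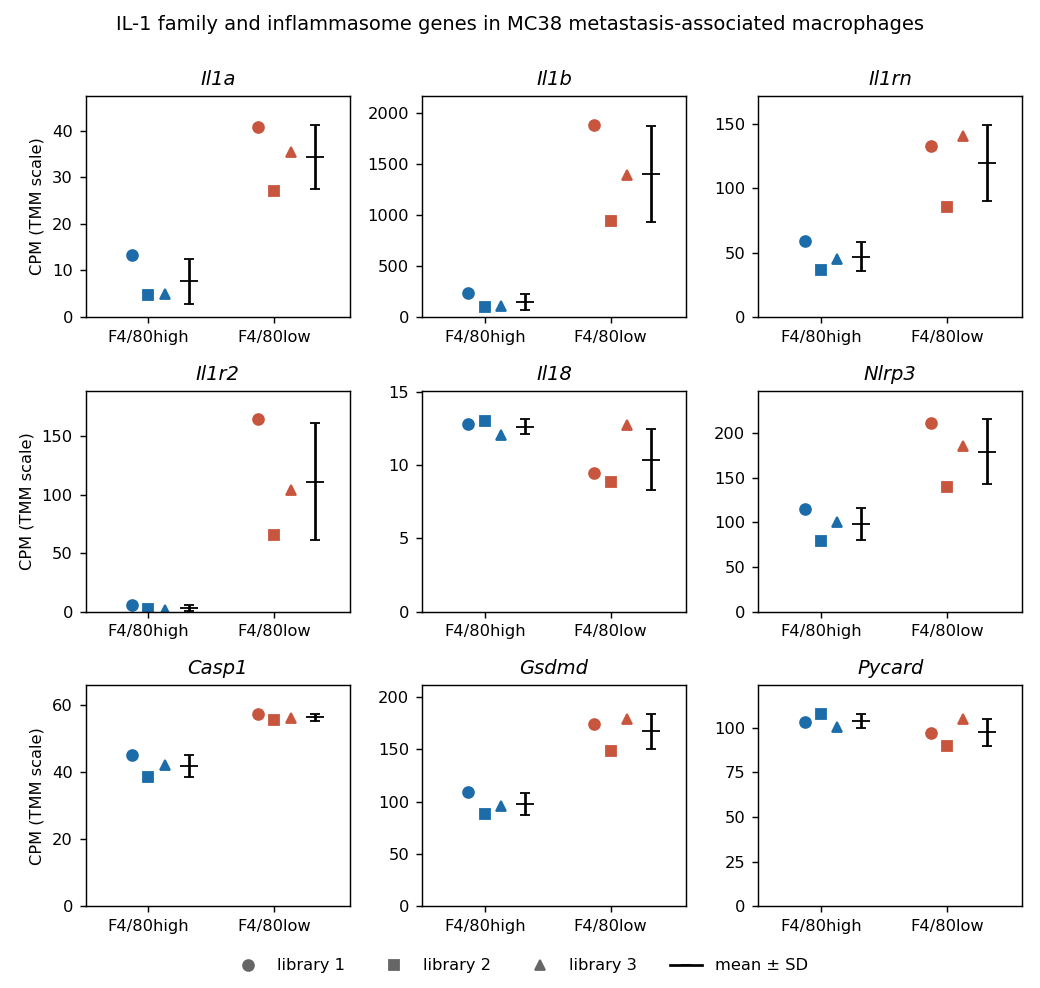
Each panel plots the CPM of 1 gene (y axis, linear from 0, scaled by TMM) in the 3 F4/80high libraries (blue) and the 3 F4/80low libraries (red) of MC38 metastases, with a symbol for each library and a bar for the mean ± SD. The points of the subsets lie apart for 7 genes, with *Il1b* between 98.1 and 239.8 CPM in F4/80high and between 946.1 and 1888 CPM in F4/80low MAMs, and overlap for *Il18* and *Pycard*.

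*Il1b* (ENSMUSG00000027398) encodes IL-1β and lies on chr2:129206490-129213059 of GRCm39, on the minus strand. It read 239.8, 98.1 and 107.0 CPM in the 3 F4/80high libraries and 1888, 946.1 and 1392 CPM in the 3 F4/80low libraries. The lowest F4/80low library held several times the level of the highest F4/80high library. The difference was 9.51-fold, with a log2 fold change of -3.25 (SE 0.40, 95% confidence interval -4.16 to -2.34, n = 3 per subset) and an adjusted p of 0.000289 in edgeR. *Il1a*, whose product IL-1α signals through the same receptor but does not need caspase-1 to become active, followed at a far lower level. Its values were 13.3, 4.64 and 4.96 CPM in F4/80high and 40.7, 26.98 and 35.3 CPM in F4/80low MAMs, a difference of 4.57-fold (log2 fold change -2.19, SE 0.38, adjusted p = 0.00188). Without library 1 of the F4/80high cells the log2 fold change of *Il1a* was -2.84. For both genes library 1 was the highest of its subset, and for both the subsets stayed apart.

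*Il18*, the third cytokine of the group and like IL-1β a substrate of caspase-1, did not pass the test. It read 12.8, 13.0 and 12.1 CPM in F4/80high and 9.49, 8.88 and 12.8 CPM in F4/80low MAMs. Library 3 of the F4/80low cells lay among the F4/80high libraries and the other two lay below them. The log2 fold change was 0.29 (SE 0.16, 95% confidence interval -0.08 to 0.65, adjusted p = 0.173), so changes of the size seen for *Il1b* lie outside the interval. Without library 3 of the F4/80low cells *Il18* was called higher in F4/80high MAMs, with a log2 fold change of 0.46 and an adjusted p of 0.0312. *Il18* overlaps *Bco2* and *Tex12* on the opposite strand. Genes of the opposite strand also overlap *Il1a* and *Il1b* (*Gm14023*, and at *Il1b* also *Il1bos*), *Il1r2* (*Gm16894*), *Casp1* (*Gm67740*), *Gsdmd* (*Gm62577*) and *Pycard* (*Gm45205*), and *Gm37347* overlaps *Il1r2* on its own strand. The libraries were directional, but whether the counting used strand is not given in the sources used here, so counts of these genes may include reads of their overlapping partners.

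*Il1rn* encodes the IL-1 receptor antagonist, which occupies the receptor without signaling. It read 58.8, 36.5 and 44.9 CPM in F4/80high and 132.6, 85.5 and 140.7 CPM in F4/80low MAMs, without overlap. The antagonist transcript was thus lower in the same subset as the agonists, by 2.56-fold (log2 fold change -1.36, SE 0.22, 95% confidence interval -1.87 to -0.85, adjusted p = 0.00139). *Il1r2*, the decoy receptor that binds IL-1 and has no signaling domain, had the largest difference among the 9 genes. It read 5.54, 2.44 and 1.43 CPM in F4/80high and 164.5, 65.4 and 104.0 CPM in F4/80low MAMs, from 44 to 123 counts per F4/80high library. The difference was 36.8-fold (log2 fold change -5.20, SE 0.51, 95% confidence interval -6.37 to -4.04, adjusted p = 9.22e-05), and the log2 fold change was -5.85 without library 1 of the F4/80high cells.

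The promoters of the ligands and of the antagonist are shown because *Il1a*, *Il1b* and *Il1rn* were lower in F4/80high MAMs, whereas *Il18* was not called. They are the 250 bases before a transcription start in RefSeq, on build GRCm38.p6, written 5′ to 3′ on the strand of the gene, and 8 of the 9 genes had a window in the table, *Gsdmd* being the exception. Capitals mark matches, on either strand, to GGGANNTT (NF-kB) or TGANTCA (AP-1), short forms of the motifs of factors that act in inflammatory transcription. *Il1rn* has 3 starts in the table, of which the first and the second are shown.
Il1a, chr2:129309973-129310222, minus strand: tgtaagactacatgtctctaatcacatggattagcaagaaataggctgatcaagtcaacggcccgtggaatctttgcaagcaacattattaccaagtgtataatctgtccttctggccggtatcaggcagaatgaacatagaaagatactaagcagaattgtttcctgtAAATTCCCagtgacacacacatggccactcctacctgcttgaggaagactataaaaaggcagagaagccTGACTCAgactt
Il1b, chr2:129371140-129371389, minus strand: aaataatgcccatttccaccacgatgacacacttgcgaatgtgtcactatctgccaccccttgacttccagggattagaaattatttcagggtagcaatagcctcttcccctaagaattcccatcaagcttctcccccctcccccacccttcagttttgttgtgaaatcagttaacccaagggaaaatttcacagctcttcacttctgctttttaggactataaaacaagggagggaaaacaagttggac
Il1rn, first start, chr2:24336610-24336859, plus strand: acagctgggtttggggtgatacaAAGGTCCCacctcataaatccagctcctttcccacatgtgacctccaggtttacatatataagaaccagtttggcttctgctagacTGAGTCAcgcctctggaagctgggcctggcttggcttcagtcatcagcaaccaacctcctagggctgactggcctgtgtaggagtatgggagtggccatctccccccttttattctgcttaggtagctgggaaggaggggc
Il1rn, second start, chr2:24345041-24345290, plus strand: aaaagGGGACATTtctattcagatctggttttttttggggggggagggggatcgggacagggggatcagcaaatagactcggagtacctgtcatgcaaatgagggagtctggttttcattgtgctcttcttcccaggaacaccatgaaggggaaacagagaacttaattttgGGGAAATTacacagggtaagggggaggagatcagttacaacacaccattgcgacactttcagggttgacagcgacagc
Il18, chr9:50554450-50554699, plus strand: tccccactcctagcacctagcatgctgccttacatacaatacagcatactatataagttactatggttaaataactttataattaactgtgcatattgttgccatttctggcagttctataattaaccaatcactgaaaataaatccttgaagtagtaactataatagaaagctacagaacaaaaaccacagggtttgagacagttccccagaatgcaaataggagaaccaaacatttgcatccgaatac

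The *Il1a* window held the NF-kB letters at positions -81 to -74 and the AP-1 letters at positions -12 to -6, counted back from -1 at the base before the start. At *Il1rn* the first window held the NF-kB letters at -227 to -220 and the AP-1 letters at -141 to -135, and the second held the NF-kB letters at -245 to -238 and again at -78 to -71. The third *Il1rn* window overlaps the second and holds its nearer match, at -158 to -151 from its own start. No match to the searched letters lay in the 250 bases of *Il1b* or *Il18*, which says only that these letters are not in those windows. The NF-kB letters were in 12.8% and the AP-1 letters in 6.75% of all 32851 windows. The 8 genes gave 11 windows, of which 4 held the NF-kB letters and 2 the AP-1 letters, in both cases those of *Il1a* and *Il1rn*. TTGCNNAA, a short form of the C/EBP motif, was in 9.56% of all windows and, among the 8 genes, in that of *Pycard*, at -142 to -135. AGAGGAAG, a PU.1 motif, was in 3.67% of all windows and in 0 of the 11.

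*Nlrp3* encodes the sensor of the NLRP3 inflammasome and lies on chromosome 11. It read 115.1, 79.2 and 100.5 CPM in F4/80high and 211.3, 139.8 and 185.6 CPM in F4/80low MAMs. The subsets did not overlap, and the difference was 1.82-fold (log2 fold change -0.86, SE 0.18, 95% confidence interval -1.27 to -0.46, adjusted p = 0.00443). *Gsdmd*, the gene of the pore-forming gasdermin D, read 108.9, 88.3 and 95.6 CPM in F4/80high and 173.5, 147.9 and 179.1 CPM in F4/80low MAMs. It was 1.71-fold lower in F4/80high MAMs (log2 fold change -0.77, SE 0.11, 95% confidence interval -1.03 to -0.52, adjusted p = 0.000695).

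*Casp1*, the gene of caspase-1, had the smallest difference among the 7 called genes. It read 45.1, 38.5 and 42.0 CPM in F4/80high and 57.2, 55.4 and 55.9 CPM in F4/80low MAMs, with no overlap and a difference of 1.34-fold (log2 fold change -0.43, SE 0.08, 95% confidence interval -0.62 to -0.23, adjusted p = 0.00373). *Pycard*, the gene of the adaptor ASC, was not called. It read 103.1, 107.7 and 100.2 CPM in F4/80high and 97.3, 89.9 and 104.9 CPM in F4/80low MAMs, and the values of the subsets overlapped. Its log2 fold change of 0.09 (SE 0.08, adjusted p = 0.412) had a 95% confidence interval from -0.10 to 0.28, so a decrease in F4/80high MAMs of the size fitted for *Casp1* lies outside it. The genes of the machinery, *Nlrp3*, *Gsdmd*, *Casp1* and *Pycard*, thus differed by at most 1.82-fold, and the called cytokine, antagonist and decoy genes by at least 2.56-fold.

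To compare levels between genes, CPM were divided by the length in kilobases of the Ensembl canonical transcript of each gene, so that the order holds for those transcripts. In F4/80low MAMs *Il1b* stood far above the other 8 genes, at between 697.7 and 1393 CPM per kb. Means of 84.5 for *Gsdmd*, 78.4 for *Il1r2*, 48.3 for *Il1rn*, 44.5 for *Nlrp3* and 36.7 for *Casp1* followed, and each of these had a range that overlapped that of its neighbour in the order. *Pycard*, with a mean of 23.6, lay below them without overlap, and *Il1a* (10.04) and *Il18* (7.65) came last and overlapped each other. The place of *Pycard* depends on the length of 4122 bases used for it. Before the division its mean of 97.4 CPM was above that of *Casp1* (56.2 CPM) and below those of *Gsdmd*, *Il1r2*, *Il1rn* and *Nlrp3*. In F4/80high MAMs *Il1b* was again the highest, at between 72.3 and 176.8 CPM per kb, and *Gsdmd* the next, at between 44.7 and 55.2. *Casp1* (27.3), *Pycard* (25.2), *Nlrp3* (24.4) and *Il1rn* (18.9) each overlapped their neighbour. *Il18* followed at 9.31, and *Il1a* (2.23) and *Il1r2* (2.21) were the lowest and overlapped each other. *Il18* thus exceeded *Il1a* in all 3 F4/80high libraries, whereas in F4/80low MAMs the ranges of these cytokines overlapped.

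Ratios within a library do not depend on its scaling, and were taken as the log2 ratio of counts per kilobase with 0.5 counts added to each gene. *Il1rn* stood to *Il1b* at -2.90, -2.29 and -2.12 in the F4/80high libraries and at -4.70, -4.34 and -4.17 in the F4/80low libraries. In every library the *Il1b* transcript exceeded that of *Il1rn*, by 4.35- to 7.44-fold in F4/80high and by 18.1- to 26.0-fold in F4/80low MAMs. These folds hold for the canonical transcript lengths. The mean ratio was -2.44 ± 0.41 (SD, n = 3) in F4/80high and -4.40 ± 0.27 in F4/80low MAMs, a difference of 1.97 on the log2 scale or 3.91-fold, with a two-sided exact permutation p of 0.1, the smallest that 3 against 3 libraries allow. *Il1a* stood to *Il1b* at -5.67 ± 0.14 in F4/80high and -6.66 ± 0.20 in F4/80low MAMs, so that *Il1b* differed by more between the subsets than *Il1a* did (difference 0.99, exact permutation p = 0.1, no overlap).

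The decoy receptor was set against *Il1r1*, the signaling receptor for IL-1, in the same way. *Il1r1* was rare, at 0.50, 0.50 and 0.49 CPM in F4/80high and 1.58, 1.74 and 2.25 CPM in F4/80low MAMs, from 11 to 52 counts per library. *Il1r2* exceeded it in every library. The log2 ratio of *Il1r2* to *Il1r1* was 4.46 ± 0.96 in F4/80high and 7.86 ± 0.78 in F4/80low MAMs (SD, n = 3), a difference of -3.41 or 10.6-fold with no overlap and an exact permutation p of 0.1. *Il18bp*, the secreted IL-18 binding protein, stood to *Il18* at 0.62, -0.19 and 0.58 in F4/80high and at 0.88, 0.36 and -0.06 in F4/80low MAMs. These values overlapped, and the difference of -0.06 had an exact permutation p of 0.9 in a two-sided test.

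**Figure D2:**
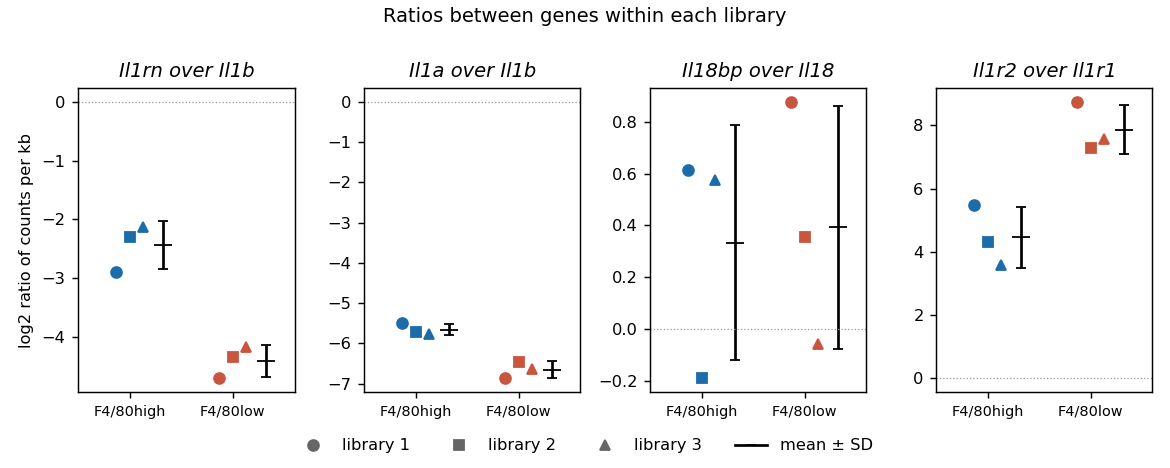
Each panel plots a log2 ratio of counts per kb between 2 genes (y axis, its range set per panel, dotted line at equal levels) within each F4/80high library (blue) and each F4/80low library (red), with the mean ± SD. The ratios of *Il1rn* and of *Il1a* to *Il1b* were higher and that of *Il1r2* to *Il1r1* was lower in the F4/80high libraries, with no overlap, and that of *Il18bp* to *Il18* overlapped.

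Other genes of the pathway were taken from 7 lists. The lists were chosen with earlier results of these data known, so the shares below describe them and are not a test. With the 9 genes they held 78 names, 69 of them in the count table. Of the 60 tested genes besides the 9, 38 were called lower in F4/80high MAMs (63.3%, against 27.1% of all genes), 6 were called higher (10%, against 27.8%), and 16 were not called. Among the 8 receptors of the IL-1 family, *Il1r2* included, 7 were lower and 1 was higher, with a median log2 fold change of -1.65 against 0.01 over all genes. Without *Il1r2*, 6 of 7 were lower and the median was -1.405. *Il18rap*, the accessory chain of the IL-18 receptor, had a mean of 2.19 ± 0.29 CPM in F4/80high and 26.8 ± 1.44 CPM in F4/80low MAMs (SD, n = 3), with a log2 fold change of -3.62 (SE 0.14) and an adjusted p of 1.60e-06. *Sigirr*, a receptor that dampens IL-1 family signaling, was lower by a log2 fold change of -1.41 (adjusted p = 0.000251) and *Il1rap*, the shared accessory chain, by -0.54 (adjusted p = 0.00286). The receptor that was higher in F4/80high MAMs was *Il1rl1*, which binds IL-33, at 18.5 ± 6.62 against 10.8 ± 1.13 CPM (log2 fold change 0.78, adjusted p = 0.0238). The other ligands of the list were not called, with a log2 fold change of 0.25 for *Il18bp* (adjusted p = 0.397) and 0.70 for *Il33* (adjusted p = 0.394), which turned to -0.35 without library 2 of the F4/80high cells, and the 5 genes of the IL-36 and IL-38 group were not in the table.

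Among the 13 genes of IL-1 receptor signaling 7 were lower in F4/80high MAMs, 1 was higher and 5 were not called, with a median log2 fold change of -0.21. The kinase gene *Irak2* fell from 103.0 ± 7.41 CPM in F4/80low to 50.6 ± 0.72 CPM in F4/80high MAMs (log2 fold change -1.02, adjusted p = 3.45e-05). The ubiquitin ligase *Traf6* (log2 fold change -0.83, adjusted p = 0.00015), the adaptor *Myd88* (-0.59, adjusted p = 0.000439) and *Tab3* (-0.44, adjusted p = 0.013) were lower as well. *Tab2*, at 0.04 (adjusted p = 0.75), and *Map3k7*, the gene of the kinase TAK1, at 0.11 (adjusted p = 0.299), did not pass the test.

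Of the 10 measured inflammasome sensors, *Nlrp3* included, 7 were lower in F4/80high MAMs and 3 were not called, with a median log2 fold change of -0.84. Without *Nlrp3*, 6 of 9 were lower and the median was -0.82. *Mefv*, the gene of pyrin, had a mean of 15.0 ± 4.06 CPM in F4/80high and 60.1 ± 5.58 CPM in F4/80low MAMs (log2 fold change -2.00, adjusted p = 5.98e-05), a larger fold than that of *Nlrp3*. *Naip5* (-0.93, adjusted p = 6.80e-05), *Naip6* (-0.93, adjusted p = 0.000373) and *Naip2* (-0.82, adjusted p = 0.000141), receptors for bacterial proteins, were lower by similar amounts, although counts of these near-identical paralogs may be split uncertainly between them. *Nlrc4*, the partner of the NAIP proteins, had a log2 fold change of -0.11 (adjusted p = 0.613) and *Nlrp1b* one of -0.01 (adjusted p = 0.956), and neither passed the test.

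In the list of the adaptor, the caspases and the pore genes, which holds *Pycard*, *Casp1* and *Gsdmd*, 4 of 8 were lower, 1 was higher and 3 were not called. *Casp4*, the caspase of the noncanonical inflammasome, had a log2 fold change of -0.78 (adjusted p = 0.00634) and *Casp8* one of -0.33 (adjusted p = 0.0115). *Ninj1*, which ruptures the membrane after the pore has formed, had one of 0.19 (adjusted p = 0.478) and *Gsdme* one of -0.10 (adjusted p = 0.729). The gene called higher was *Casp12*, at 4.02 against 1.49 CPM (log2 fold change 1.44, adjusted p = 0.00305), which falls outside the rule for named genes and was added after its values were seen.

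The 12 tested regulators split most. Called lower in F4/80high MAMs were 7, among them *Serpinb9* (log2 fold change -1.86, adjusted p = 0.000763) and the guanylate-binding protein genes *Gbp2* (-1.10, adjusted p = 0.00979) and *Gbp5* (-1.06, adjusted p = 0.000524), members of a family of similar sequence between which counts may be split uncertainly. Called higher were 3. *P2rx7*, the ATP-gated channel that triggers NLRP3, read 142.9 ± 32.5 CPM in F4/80high and 58.3 ± 3.29 CPM in F4/80low MAMs, 2.45-fold higher (log2 fold change 1.29, SE 0.15, adjusted p = 0.000262). The others were *Txnip* (0.50, adjusted p = 0.029) and *Nek7* (0.40, adjusted p = 0.00292), whose products bind NLRP3, both named after their values were seen. *Gbp7*, at -0.06 (adjusted p = 0.789), and *Brcc3*, at 0.02 (adjusted p = 0.905), were not called.

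Of 12 genes of NF-kB priming and its feedback 10 were lower in F4/80high MAMs and 2 were not called, with a median log2 fold change of -1.29. *Ptgs2*, the gene of cyclooxygenase-2, had a mean of 48.8 ± 22.0 CPM in F4/80high and 234.3 ± 98.0 CPM in F4/80low MAMs (log2 fold change -2.27, adjusted p = 0.00196). The NF-kB subunit genes *Relb* (-1.65, adjusted p = 3.29e-05) and *Rel* (-1.61, adjusted p = 0.000591) and the inhibitor gene *Nfkbia* (-1.61, adjusted p = 0.000239) were lower too. *Tnf*, a target of NF-kB like *Il1b*, read 47.6 ± 5.70 CPM in F4/80high and 45.3 ± 12.9 CPM in F4/80low MAMs and was not called (log2 fold change 0.07, adjusted p = 0.78), and neither was *Nfkbiz* (-0.12, adjusted p = 0.713).

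**Figure D3:**
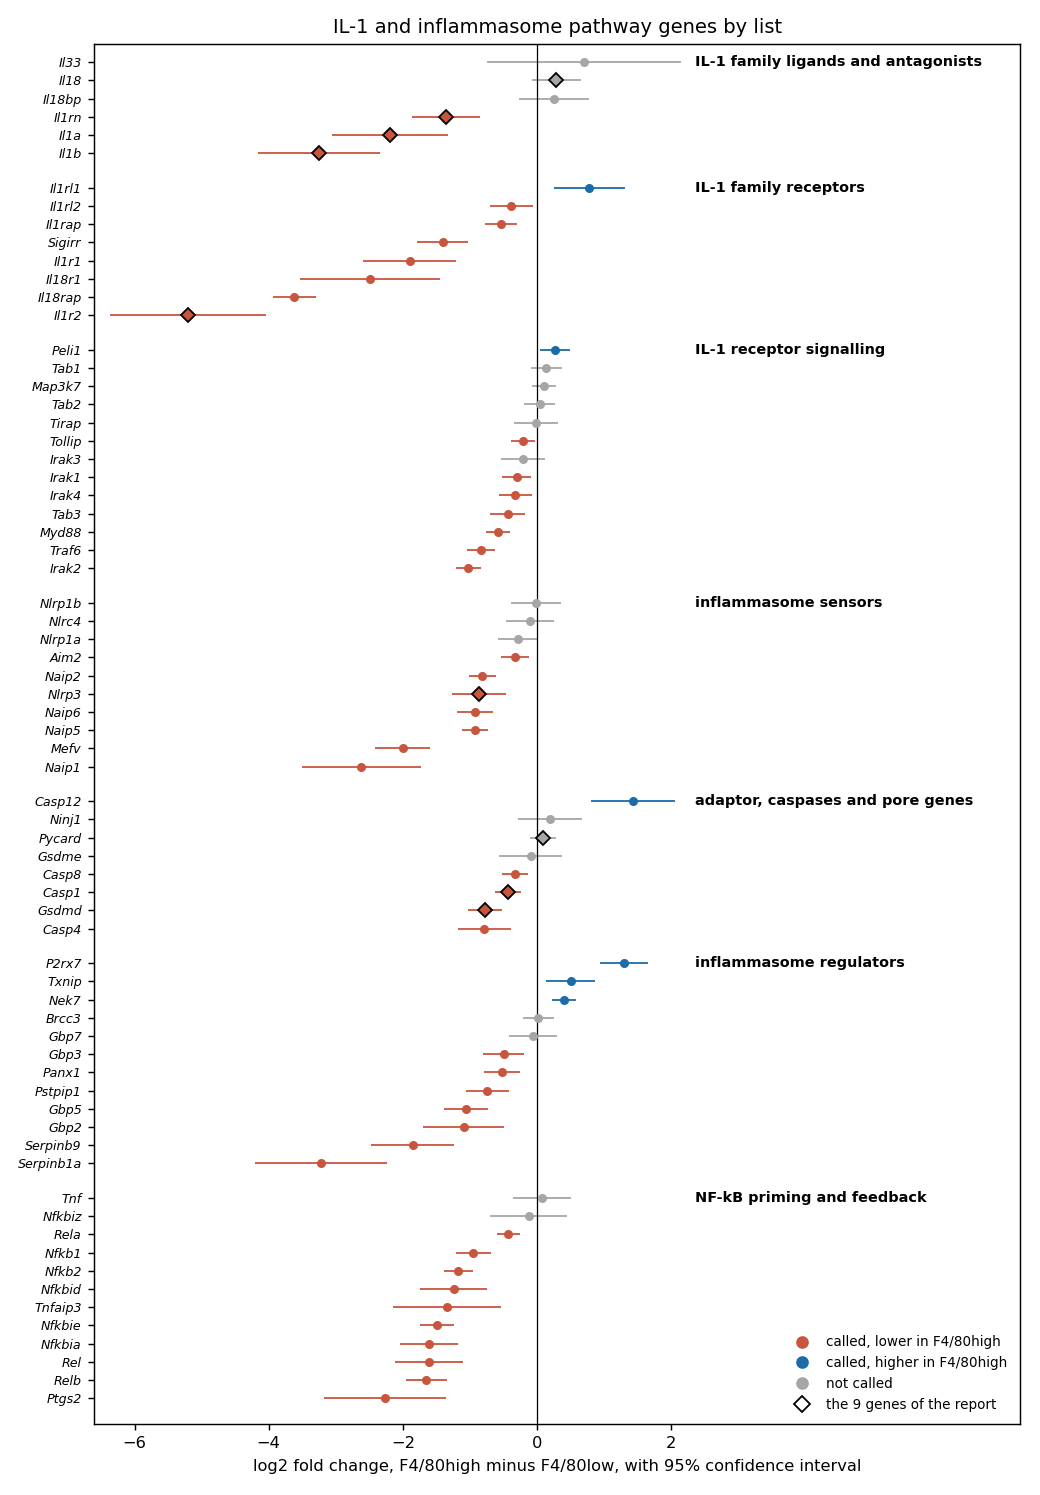
The 69 pathway genes in the table are plotted by list, with the log2 fold change of F4/80high minus F4/80low MAMs on the x axis and the 95% confidence interval of each as a line. Red marks a gene called lower and blue one called higher in F4/80high MAMs, gray one not called, and diamonds mark the 9 genes chosen by symbol, from *Il1r2* at -5.20 to *Il18* at 0.29.

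Markers of other cell types moved with these differences. The 10 macrophage markers summed to between 13910 and 17750 CPM in F4/80high and between 5044 and 5834 CPM in F4/80low MAMs. Of them 8 (*Adgre1*, *Csf1r*, *Mertk*, *C1qa*, *C1qb*, *C1qc*, *Trem2* and *Mrc1*) were higher in F4/80high MAMs and 2 were not called. All 7 markers of classical monocytes (*Ly6c2*, *Ccr2*, *Plac8*, *Vcan*, *Chil3*, *Hp* and *Ms4a4c*) were lower in F4/80high MAMs, with sums of 572.0 to 715.0 against 2474 to 2777 CPM. Of the 8 dendritic cell markers 7 (*Flt3*, *Zbtb46*, *Clec9a*, *Cd209a*, *Ccr7*, *Fscn1* and *Siglech*) were lower, with sums of 43.1 to 66.8 against 622.8 to 1210 CPM. *Ccr7* alone read 5.72, 0.99 and 3.11 CPM in F4/80high and 323.4, 165.0 and 146.0 CPM in F4/80low MAMs. The F4/80low libraries thus held far more RNA of monocyte and dendritic cell genes beside the 7 genes that were higher in them, and the part of those cells in the differences was not tested.

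Neutrophils, a further source of *Il1b* and *Il1r2* transcripts, had 9 of 12 markers in the table, and *Ly6g*, *Camp* and *Elane* were not in it. Summed, the 9 reached 74.0 to 104.6 CPM in F4/80high and 100.4 to 218.0 CPM in F4/80low MAMs, and included *Csf3r*, at 66.8 to 84.1 CPM in the F4/80low libraries, which was not called and which monocytes and macrophages also express. The other 8 (*S100a8*, *S100a9*, *Cxcr2*, *Mmp8*, *Ltf*, *Ngp*, *Retnlg* and *Lcn2*) were lower in F4/80high MAMs. *S100a8* read at most 0.04 CPM in the F4/80high libraries and 21.1, 1.30 and 2.46 CPM in the F4/80low libraries, and *Ngp* 51.4, 1.30 and 5.06 CPM in the latter, so that library 1 of the F4/80low cells stood above the others. Of the 9 genes 5 (*Il1a*, *Il1b*, *Il1r2*, *Nlrp3* and *Casp1*) were highest in library 1 of both subsets. Without library 1 of the F4/80low cells the log2 fold change was -2.99 for *Il1b* (adjusted p = 0.0009) and -4.81 for *Il1r2* (adjusted p = 0.000226), smaller than with it, and all 7 genes were called. With both libraries 1 left out, a choice made after seeing the data, the values were -3.51 (adjusted p = 5.90e-05) for *Il1b* and -5.46 (adjusted p = 4.74e-05) for *Il1r2*. The remaining F4/80low libraries still held more of these neutrophil transcripts than the F4/80high libraries, and the part of neutrophil RNA in the differences was not tested.

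Of the Kupffer cell markers *Vsig4*, *Marco* and *Cd5l* were higher and *Timd4* was lower in F4/80high MAMs, with sums of 6.68 to 15.8 against 9.10 to 10.9 CPM and *Clec1b* not in the table. Both tumor epithelium markers in the table, *Epcam* and *Cdh1*, were lower in F4/80high MAMs, with sums of 8.30 to 11.8 against 197.0 to 281.4 CPM. Most of each sum was *Cdh1*, at 247.4, 264.2 and 189.3 CPM in the F4/80low libraries, where *Epcam* read 16.8, 17.2 and 7.70 CPM. *Krt8*, *Krt18*, *Krt19* and *Cldn4* were not in the table, and which cells the *Cdh1* and *Epcam* RNA came from was not tested. The remaining called markers were *Siglecf*, *Trac*, *Klrb1c*, *Prf1* and *Gzma*, lower in F4/80high MAMs, and *Cd79b*, higher. Of the 8 markers of eosinophils, basophils and mast cells *Siglecf* alone was in the table. The sums of that list and of the B cell, T cell, NK cell and hepatocyte markers stayed at or below 36.9 CPM in every library.

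**Figure D4:**
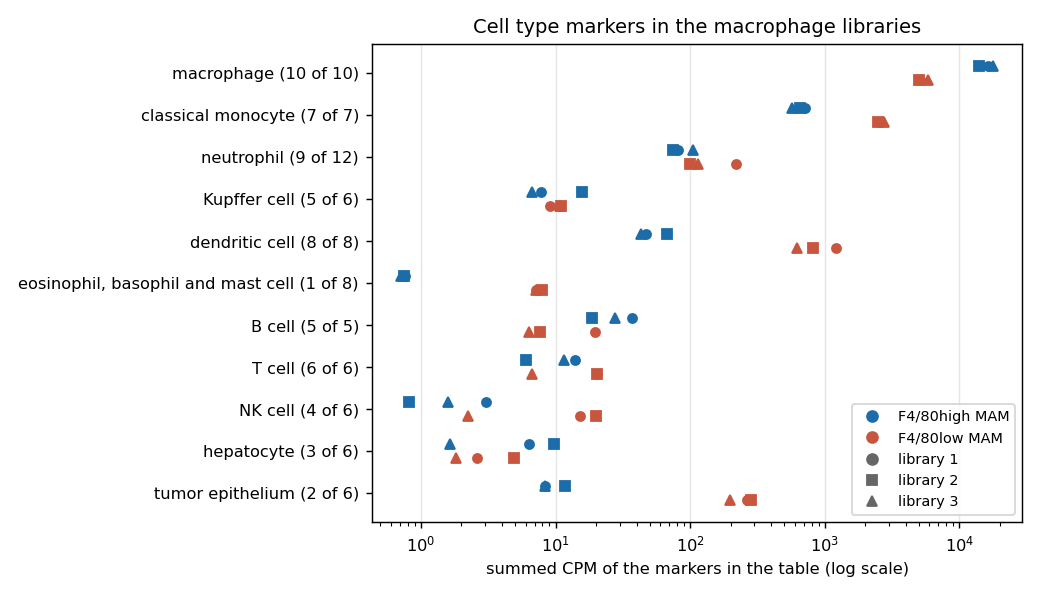
For each list of cell type markers the summed CPM (x axis, log scale) of the markers in the table is plotted for each F4/80high library (blue) and each F4/80low library (red), with the number of listed markers in the table given in brackets. The macrophage sums were higher in the F4/80high libraries, and the monocyte, dendritic cell and tumor epithelium sums were higher in the F4/80low libraries, each without overlap. Most of the tumor epithelium sum was *Cdh1*.

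The genes whose log2 CPM over the 6 macrophage libraries were most like those of *Il1b*, among 8909 genes with a mean of at least 10 CPM, were *Tmem134*, *Pip4k2c* and *H3f3a*, each with a Pearson r of 0.999. The libraries fall into the subsets compared above, and a gene that differs between the subsets reaches a high r in part through that difference. *Tmem134*, for example, read 51.0 to 58.6 CPM in F4/80high and 76.9 to 88.4 CPM in F4/80low MAMs. The genes most like *Il18* were *Ftl1* (r = 0.997), *Rnf121* (r = 0.992) and *Elk3* (r = 0.989), none of them called between the subsets. With 6 libraries and 8909 genes, the highest r values are also raised by selection.

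In the lymphocytes the same 9 genes were looked up in the estimated counts of the 12 libraries. *Il1a* and *Il1rn* were listed at 0 in 11 of the 12 libraries, *Il1r2* in 9, *Il1b* and *Il18* in 8 each, and *Nlrp3* in 7. A count of 0 allows a level of up to 0.209 to 0.341 CPM (before TMM scaling), depending on the library, for counting error only. *Il1b* reached at most 5.05 CPM, in library 2 of MFL ILC1, and *Il18* at most 4.67 CPM, in library 1 of MFL ILC1. The genes that were found in every library were those of the machinery. *Gsdmd* lay between 22.5 and 94.7 CPM, *Pycard* between 22.1 and 91.1 CPM and *Casp1* between 2.44 and 50.4 CPM, with a wide spread within some groups. *Casp1*, for example, read 50.4, 2.44 and 23.6 CPM in the 3 libraries of LM CD49a- NK cells.

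Only *Il1b*, *Nlrp3*, *Casp1*, *Gsdmd* and *Pycard* passed the filter on low counts, and 0 of these 5 were called by edgeR in any of 4 comparisons, and 0 by DESeq2. Over all 13594 genes the called share was 0.0736% for LM CD49a- NK cells against MFL NK cells, 0.647% for LM CD49a+ NK cells against MFL NK cells, 0.14% for LM CD49a+ against LM CD49a- NK cells and 3.06% for MFL ILC1 against MFL NK cells. At an unadjusted p under 0.05 the number of the 5 genes was 0, 1, 0 and 2 in the same order. The lowest unadjusted p of the genes detected in every library was that of *Pycard*, at 27.4 ± 6.12 CPM in MFL ILC1 and 61.0 ± 27.6 CPM in MFL NK cells (SD, n = 3), with a log2 fold change of -1.15 (SE 0.47, adjusted p = 0.394). Metastases were digested with an enzyme and the metastasis-free liver was not, so site and dissociation cannot be told apart in the comparisons between LM and MFL.

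The receptors through which lymphocytes respond to these cytokines were read in the same libraries. *Il1r1* was listed at 0 in all 12, and *Il1rl1* reached at most 11.3 CPM, in library 3 of LM CD49a+ NK cells. Both chains of the IL-18 receptor were abundant. *Il18r1*, the ligand-binding chain, read 433.4, 427.0 and 500.2 CPM in NK cells of the MFL, 433.0, 673.0 and 393.0 CPM in LM CD49a- NK cells, 426.6, 386.5 and 339.7 CPM in LM CD49a+ NK cells and 91.7, 61.3 and 75.2 CPM in MFL ILC1. The ILC1 libraries lay below all others, with a log2 fold change against MFL NK cells of -2.58 (SE 0.25, adjusted p = 7.25e-06 in edgeR). *Il18rap* likewise read 959.5, 871.2 and 1213 CPM in the NK cells of the MFL but 268.1, 195.1 and 172.9 CPM in its ILC1 (log2 fold change -2.26, SE 0.27, adjusted p = 5.29e-05). In the metastasis it read 1319, 970.1 and 1472 CPM in CD49a- and 447.8, 420.4 and 700.5 CPM in CD49a+ NK cells, without overlap. The log2 fold change of -1.26 (SE 0.26) missed the threshold with an adjusted p of 0.104 in edgeR, whereas DESeq2 gave an adjusted p of 0.000933. With the replicate number as a block, *Il18rap* was called in this comparison.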

How the data were processed

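RNA-seq of sorted cells was analyzed in 6 macrophage and 12 lymphocyte libraries. For the macrophages the authors made directional poly(A) libraries and deposited whole-number counts per gene without normalization, in a table whose rarest gene has 37 counts in all. For the lymphocytes the authors made total RNA libraries, quantified them with Salmon v1.5.0 against GENCODE transcripts of GRCm39 and deposited estimated counts, which were already whole. The submitters' processing notes list Salmon v1.10.0, R v4.3.1 and DESeq2 v1.40.2 for the macrophages, without a role for each, and state GRCm39. The single-cell, flow cytometry and human data of the study were not used here.

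Gene IDs were named from GENCODE vM39, and positions are those of GRCm39, except the RefSeq promoters. The tables were fitted separately with R v4.3.3 and edgeR v4.0.16 (filterByExpr, TMM, quasi-likelihood test), which kept 13759 and 13594 genes, with Benjamini-Hochberg adjustment over all of them and calls at an adjusted p under 0.1. The SE is the log2 fold change divided by the square root of F and is approximate. Ratios were compared by exact permutation. DESeq2 v1.42.0, RLE scaling, other filters, a threshold of 0.05, a replicate block and the removal of each library were the alternatives, and the fits were first tested on simulated data. Besides the 9 genes, the text names from each pathway list up to 4 called genes with the largest change and a mean of at least 5 CPM and up to 2 not called with the highest mean CPM. The members and lists were chosen with earlier results of these data known. An item of the marker lists is not reported here.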

Additional observations from a re-analysis of the deposited data

How the results depend on the processing

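All 7 called genes of the 9 stayed called and lower in F4/80high MAMs under each of 12 alternatives to the macrophage fit, of which 1, the fit without a filter, kept the same genes and values as the reported one and tests nothing, and at an adjusted p under 0.05, and *Pycard* was called under none. The log2 fold change of *Il1b* ranged from -3.78 to -2.99, that of *Il1a* from -2.84 to -1.94, that of *Il1r2* from -5.85 to -4.81, and that of *Casp1*, the smallest, from -0.48 to -0.37, with a highest adjusted p of 0.0233. *Il18* was called only without replicate 3 of the F4/80low MAMs (0.46). Same-numbered libraries did not all deviate alike (correlations of -0.0145 to 0.172 in the macrophages, highest for the replicate 1 pair, and -0.0452 to 0.0981 in the lymphocytes), and with the replicate block 7 of the 9 genes were called, as without it. Without 1 library each, the difference in the ratio of *Il1rn* to *Il1b* ranged from 1.81 to 2.20 and that of *Il18bp* to *Il18* from -0.28 to 0.20. Among the other pathway genes, *Tnf* (0.32) without replicate 1 and *Ninj1* (0.50) without replicate 3 of the F4/80low MAMs, and *Il18bp* (0.45) without replicate 2 of the F4/80high MAMs, became called higher, and the list of IL-1 receptor signaling lost its 1 gene called higher in 4 settings. In the lymphocytes 0 of the 5 tested genes were called under any alternative, and *Il18rap* between CD49a+ and CD49a- NK cells was called with DESeq2, without the filter, with the replicate block and without each of 3 libraries. The lowest count of the 9 genes in a macrophage library was 44. For the 6 genes listed at 0 in most lymphocyte libraries, a count of 0 leaves a level of up to 0.209 to 0.341 CPM possible. That bound is before TMM scaling and is not a detection limit, as *Il18* was listed at 0.07 CPM in library 2 of MFL ILC1.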
